A study of Mus musculus with 6 samples.

Results

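Notch receptors, ligands and target genes were followed in sorted glomerular endothelial cells of eNOS-null mice given streptozotocin (STZ) and of untreated eNOS-null mice. The set was a fixed list of symbols, chosen with earlier results of these data known, and held 9 of the 12911 genes in each deposited table. They were the receptor genes Notch1, Notch2, Notch3 and Notch4, the ligand genes Dll4, Jag1 and Jag2, and the target genes Hey1 and Hes1. All 9 were found, and all 9 passed the filter on low counts. STZ destroys the insulin-producing cells of the pancreas and is a standard way to make mice diabetic. Both groups, 3 STZ and 3 control libraries, carried the eNOS-null genotype, so no library from mice with intact eNOS served as a comparator. Each library held pooled RNA of 4 mice, from cells sorted as EYFP-positive after magnetic isolation and digestion of glomeruli. No source used here gives the promoter that drives EYFP or the age of the mice. Errors and p-values therefore measure the spread between pools, not between mice.

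Notch receptors are cell-surface proteins that are activated by Delta and Jagged ligands on a neighbouring cell. Ligand binding exposes the receptor to cleavage by an ADAM protease and then by gamma-secretase. The freed intracellular part enters the nucleus, binds the DNA-binding protein RBPJ and a Mastermind coactivator, and switches on genes of the Hes and Hey families, which encode transcriptional repressors. In blood vessels Notch1, Notch4 and Dll4 are best known from endothelium, where they take part in sprouting and arterial identity, and Notch3 is best known from the mural cells around it.

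Total deposited counts were 10734376 to 12662371.5 in the STZ libraries and 4387339 to 8751732.5 in the control libraries. When all libraries were thinned to the shallowest, the same number of set genes, 6, passed the test. Nos3, the gene that the genotype targets, had 613, 749 and 667 CPM (counts scaled to library size) in STZ pools 1, 2 and 3, against 847, 757 and 917 CPM in control pools 1, 2 and 3. Every STZ pool was below every control pool, with a log2 fold change of -0.31 ± 0.11 (SE) that did not pass the test (adjusted p = 0.091 by edgeR), and these levels cannot say whether the RNA came from the null allele. Xist, which is transcribed from the inactive X chromosome, stood at 0.387 to 0.865 CPM in STZ pools, against 690 to 746 CPM in control pools, while the 4 Y-linked genes measured were all higher in STZ. The labels give no sex, and for every difference below STZ and this split of the pools cannot be told apart. STZ pool 2 and control pool 3 stood apart from the other pools of their groups on the second principal component (STZ pools at 7.76, -13.3 and 8.35, control pools at 8.37, 16.6 and -27.8). Of 12 endothelial markers, 6 were higher in STZ and none was lower (DESeq2 and limma-voom each called 7). Of all tested genes, 5.47% were called higher in STZ and 4.32% lower by edgeR. The summed level of the endothelial markers was 18155 to 19438 CPM in STZ pools, against 12984 to 14402 CPM in control pools. No endothelial marker was near 0 in either group. Of 14 mesangial and mural markers other than Notch3, 4 were lower (6 by DESeq2 and 7 by limma-voom) and none was higher, with sums of 816 to 1247 CPM in STZ pools against 1536 to 1621 CPM in control pools. None of 12 podocyte markers passed in edgeR (2 had an unadjusted p under 0.05, and DESeq2 and limma-voom called 0). In such bulk samples fewer cells of a type and less RNA per cell cannot be told apart.

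In STZ pools the receptor genes Notch1 and Notch4 and the target genes Hey1 and Hes1 rose, while the receptor gene Notch3 and the ligand gene Jag1 fell. The log2 fold changes of STZ over control ran from -1.0 for Notch3 to 0.81 for Hey1. Notch2, Dll4 and Jag2 did not pass the test. Thus 6 of 9 genes (66.7%) had an adjusted p under 0.05 in edgeR's quasi-likelihood test (4 were higher and 2 lower), beside 9.78% of the 12786 genes tested (5.47% higher and 4.32% lower). The STZ and control libraries did not overlap in the same 6 genes, beside 29.1% of all tested genes. As the list was chosen with earlier results of these data known, these shares describe the 9 genes and cannot test the set. The median log2 fold change was 0.13 over the 9 genes and -0.01 over all tested genes. The count of called genes fell to 2 without control pool 1, to 3 without control pool 2, and to 4 without STZ pool 2 or STZ pool 3.

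**Figure D1:**
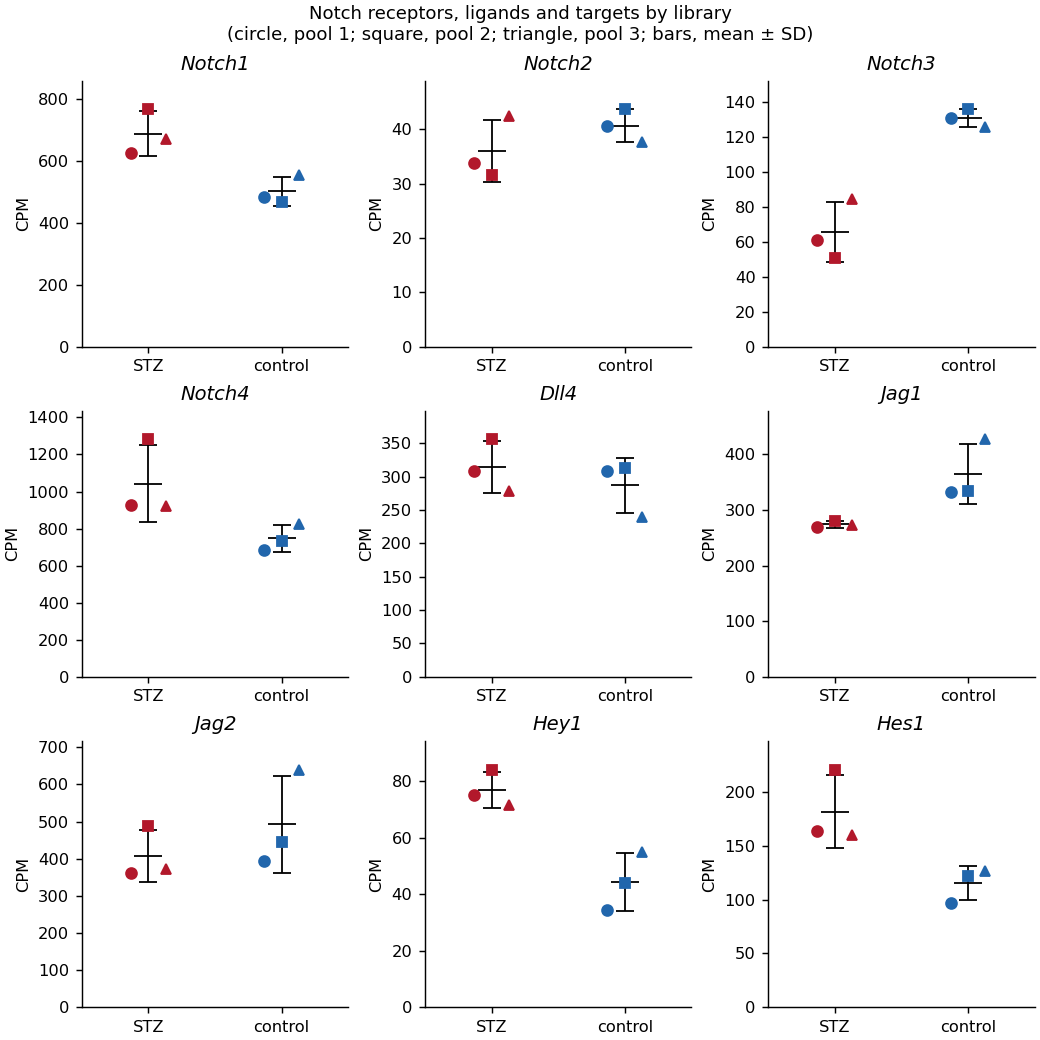
CPM (counts scaled to library size) of the 9 genes in each library, STZ left of control in every panel; circles, squares and triangles are pools 1, 2 and 3, and bars give the mean ± SD (n = 3 each). The groups do not overlap for Notch1, Notch4, Hey1 and Hes1, which are higher in STZ, nor for Notch3 and Jag1, which are lower, and they overlap for Notch2, Dll4 and Jag2.

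Among the ligands, Jag1 was lower in STZ, and neither Dll4 nor Jag2 passed the test. Jag1, a Jagged ligand made by endothelial and by mural cells (NM_013822; mm10 chromosome 2, 137081451 to 137116520, minus strand), had 269, 281 and 274 CPM in STZ pools 1, 2 and 3, against 332, 335 and 427 CPM in control pools 1, 2 and 3. The groups did not overlap, and the STZ pools had a coefficient of variation of 2.08% while control pool 3 stood above the other control pools. The log2 fold change of Jag1 was -0.41 ± 0.11 (SE, n = 3 against 3; adjusted p = 0.0301 by edgeR). The Jag1 call was lost without STZ pool 1 (adjusted p = 0.122), STZ pool 3 (0.101), control pool 1 (0.0507) or control pool 3 (0.0689), and without control pool 3 the log2 fold change was -0.27.

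Dll4, the Delta ligand of endothelial tip cells and arteries (NM_019454; mm10 chromosome 2, 119325784 to 119335666, plus strand), had 309, 356 and 279 CPM in STZ pools, against 308, 313 and 240 CPM in control pools. The groups overlapped between 279 and 313 CPM. The log2 fold change of Dll4 was 0.13 ± 0.12 (SE; adjusted p = 0.57, 95% interval of the difference -0.13 to 0.39). Jag2, the second Jagged ligand (NM_010588; mm10 chromosome 12, 112908590 to 112929495, minus strand), had 362, 488 and 373 CPM in STZ pools, against 393, 444 and 640 CPM in control pools. Control pool 3 was far above the other 5 libraries, and without it the Jag2 log2 fold change was -0.03, against -0.27 ± 0.20 (SE; adjusted p = 0.474) with all 6 (95% interval -0.73 to 0.19). The ratio of Dll4 to Jag1, both taken as CPM per kilobase of transcript, was 1.82, 2.02 and 1.62 in STZ pools, against 1.48, 1.49 and 0.893 in control pools. This ratio was thus higher in every STZ pool than in any control pool, whereas the ratio of Dll4 to Jag2 overlapped between the groups, with 0.856 to 1.00 in STZ pools against 0.44 to 0.921 in control pools.

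The receptor genes split, with Notch1 and Notch4 higher in STZ, Notch3 lower and Notch2 not past the test. Notch1 (NM_008714; mm10 chromosome 2, 26457902 to 26503822, minus strand), the receptor that is required in endothelium for vascular development in mice, had 626, 768 and 672 CPM in STZ pools 1, 2 and 3, against 484, 468 and 556 CPM in control pools 1, 2 and 3. Every STZ pool lay above every control pool. The Notch1 log2 fold change was 0.46 ± 0.11 (SE; adjusted p = 0.0168 by edgeR), a 1.37-fold difference. The Notch1 call was lost without STZ pool 2 (adjusted p = 0.0566), STZ pool 3 (0.0535), control pool 1 (0.0957) or control pool 2 (0.0563), with log2 fold changes of 0.37 to 0.54 over all 6 omissions.

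Notch4 (NM_010929; mm10 chromosome 17, 34564295 to 34588543, plus strand), a receptor whose expression is largely restricted to endothelium, had 925, 1281 and 922 CPM in STZ pools, against 685, 732 and 826 CPM in control pools. STZ pool 2 stood well above the other STZ pools, and all 3 STZ pools were above the highest control pool. The Notch4 log2 fold change was 0.48 ± 0.13 (SE; adjusted p = 0.0405 by edgeR), a 1.40-fold difference. Without STZ pool 2 it was 0.31 (adjusted p = 0.121), and the call was also lost without control pool 1 (0.172) or control pool 2 (0.127), by limma-voom (0.0524) and with a fit that was not robust (0.0522). The ratio of Notch4 to Notch1 per kilobase was 2.16 ± 0.21 in STZ pools and 2.14 ± 0.11 in control pools (SD, n = 3 each), so the receptors kept nearly one proportion to each other in both groups.

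Notch3 (NM_008716; mm10 chromosome 17, 32120893 to 32166852, minus strand), the receptor of pericytes, mesangial cells and vascular smooth muscle, had 60.9, 51.1 and 84.5 CPM in STZ pools, against 131, 136 and 126 CPM in control pools. The control pools were close together and all STZ pools were far below them. The Notch3 log2 fold change was -1.0 ± 0.16 (SE; adjusted p = 0.00501 by edgeR), and the call was kept in all 15 alternative settings and omissions, with adjusted p from 1.79e-08 to 0.0370. Notch2 (NM_010928; mm10 chromosome 3, 98013538 to 98150367, plus strand), a receptor with broad expression, had 33.9, 31.6 and 42.4 CPM in STZ pools, against 40.7, 43.7 and 37.6 CPM in control pools. The Notch2 groups overlapped, with a log2 fold change of -0.18 ± 0.13 (SE; adjusted p = 0.444, 95% interval -0.46 to 0.10).

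Promoter sequence was available from RefSeq (GRCm38.p6) for 7 of the 9 genes, and was searched for the core sequence that RBPJ binds (TGGGAA, or the longer GTGGGAA) and for the E-box (CACGTG) and N-box (CACNAG), sequences that Hey and Hes repressors are known to bind. Both strands were searched from 250 bases before to 50 bases after the start. The target genes Hey1 and Hes1 had no promoter sequence here, so the search covered receptor and ligand genes only. None of the 7 windows held the RBPJ core, its longer form or the E-box, which occur in 25.6%, 6.38% and 7.15% of all 32851 promoter windows. The N-box, present in 42.5% of all windows, was found in the windows of Notch1, Notch2, Notch3 and Dll4 and not in those of Notch4, Jag1 and Jag2. The 250 bases before the start are shown for the 3 receptor genes that passed the test, Notch1 (chr2:26503823-26504072, minus strand) and Notch4 (chr17:34564045-34564294, plus strand), which were higher in STZ, and Notch3 (chr17:32166891-32167140, minus strand), which was lower. Capitals mark N-boxes on either strand, and the last 3 capitals of Notch1 open a pair of overlapping N-boxes that crosses the start.
Notch1: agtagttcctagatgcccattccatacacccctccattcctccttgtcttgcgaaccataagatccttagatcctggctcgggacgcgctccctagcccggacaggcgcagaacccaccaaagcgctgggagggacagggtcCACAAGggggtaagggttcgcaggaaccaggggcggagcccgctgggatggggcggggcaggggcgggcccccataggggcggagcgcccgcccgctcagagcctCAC
Notch4: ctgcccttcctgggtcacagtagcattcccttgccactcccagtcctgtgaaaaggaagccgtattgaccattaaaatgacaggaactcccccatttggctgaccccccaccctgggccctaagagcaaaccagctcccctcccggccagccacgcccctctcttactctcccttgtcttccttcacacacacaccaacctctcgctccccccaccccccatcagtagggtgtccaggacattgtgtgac
Notch3: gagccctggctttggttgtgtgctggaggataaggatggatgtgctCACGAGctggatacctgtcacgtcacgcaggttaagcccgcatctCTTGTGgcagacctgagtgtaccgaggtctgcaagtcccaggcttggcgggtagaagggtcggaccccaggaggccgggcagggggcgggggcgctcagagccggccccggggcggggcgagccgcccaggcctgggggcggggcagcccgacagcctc
Notch1 and Notch4 differ in this letter pattern, with an N-box beginning 108 bases before the start of Notch1. Whether the N-box has a part in any of the differences was not tested. Notch3 held N-boxes beginning 204 and 159 bases before the start. G and C made up 66.0%, 58.4% and 68.8% of the bases shown for Notch1, Notch4 and Notch3.

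Both target genes rose. Hey1 (NM_010423; mm10 chromosome 3, 8663359 to 8667038, minus strand), a transcriptional repressor and a direct Notch target in endothelium, had 75.1, 84.2 and 71.8 CPM in STZ pools 1, 2 and 3, against 34.4, 44.0 and 55.0 CPM in control pools 1, 2 and 3. The lowest STZ pool lay well above the highest control pool. The Hey1 log2 fold change was 0.81 ± 0.15 (SE; adjusted p = 0.00485 by edgeR), a 1.76-fold difference and the highest of the 9 genes. The Hey1 call was kept in all 15 alternative settings and omissions, with log2 fold changes of 0.64 to 0.99.

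Hes1 (NM_008235; mm10 chromosome 16, 30065357 to 30067796, plus strand), a repressor that many cell types induce in response to Notch, had 164, 221 and 160 CPM in STZ pools, against 97.0, 122 and 127 CPM in control pools. The groups did not overlap, and STZ pool 2 was the highest library. The Hes1 log2 fold change was 0.66 ± 0.14 (SE; adjusted p = 0.0156 by edgeR), a 1.58-fold difference. The Hes1 call was lost without control pool 1 (0.0659) or control pool 2 (0.0611).

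The wider target genes did not all follow Hey1 and Hes1. Heyl, the Hey family gene known from mural cells, was lower, at 5.80, 4.50 and 8.58 CPM in STZ pools against 13.4, 11.6 and 13.9 CPM in control pools (log2 fold change -1.03 ± 0.23, SE; adjusted p = 0.0128). The Heyl call was lost without STZ pool 1 (adjusted p = 0.0581) or control pool 1 (0.069). Nrarp, a feedback inhibitor induced by Notch, had 72.9, 112 and 70.9 CPM in STZ pools against 61.6, 77.6 and 75.1 CPM in control pools and did not pass (adjusted p = 0.463). Hey2, an arterial repressor, had 8.22, 5.53 and 8.09 CPM in STZ pools against 9.23, 10.8 and 13.5 CPM in control pools, and Hes6 also did not pass (adjusted p = 0.113 and 0.341). Hes2, Hes3, Hes5 and Hes7 were not listed in the deposited tables and so had no values here.

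**Figure D2:**
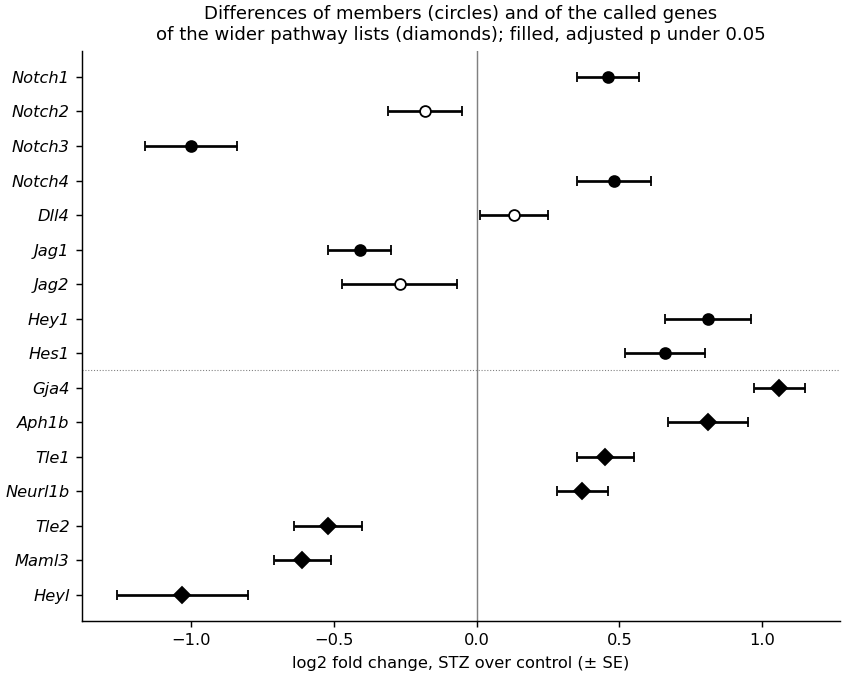
Log2 fold change of STZ over control ± SE for the 9 genes (circles) and for the 7 called genes of the wider Notch pathway lists (diamonds), with filled symbols for an adjusted p under 0.05. Values run from -1.03 for Heyl to 1.06 for Gja4, and the open circles of Notch2, Dll4 and Jag2 lie nearest to 0 among the 9 genes.

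Compared per kilobase of listed transcript, the 9 genes spanned a wide range of levels. In STZ pools the mean CPM per kilobase was 158 for Notch4, 125 for Hes1, 101 for Jag2, 91.2 for Dll4, 72.6 for Notch1, 50.0 for Jag1, 34.9 for Hey1, 8.25 for Notch3 and 3.42 for Notch2. In that order, neighbours from Notch4 down to Notch1 overlapped in their ranges, and each of the later steps separated all pools. In control pools the mean CPM per kilobase was 121 for Jag2, 113 for Notch4, 83.2 for Dll4, 79.6 for Hes1, 66.4 for Jag1, 53.0 for Notch1, 20.2 for Hey1, 16.5 for Notch3 and 3.87 for Notch2. There the neighbours Jag2 and Notch4, Dll4 and Hes1, Hes1 and Jag1, and Hey1 and Notch3 overlapped. Hey1 therefore had 32.6 to 38.2 CPM per kilobase in STZ pools beside 6.43 to 10.6 for Notch3, whereas in control pools Hey1 had 15.6 to 24.9 beside 15.9 to 17.1 for Notch3.

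**Figure D3:**
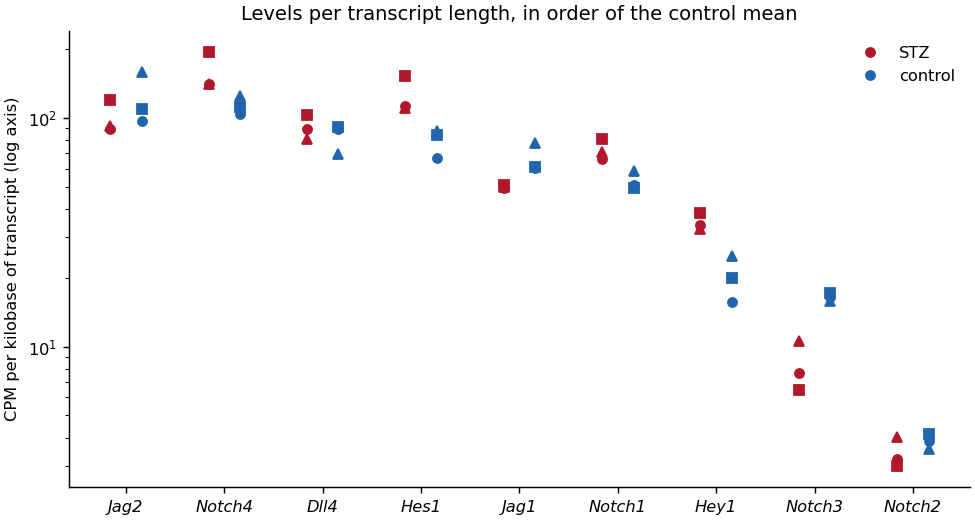
CPM per kilobase of listed transcript on a log axis for the 9 genes, ordered by the control mean, with STZ libraries left and control libraries right for each gene; circles, squares and triangles are pools 1, 2 and 3. Notch2 lies between 3.00 and 4.16 in all 6 libraries and Notch4 between 104 and 194, and Hey1 and Notch3 separate in STZ but overlap in control.

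Of the summed signal per kilobase of the 4 receptors, Notch4 made up 64.6, 68.2 and 62.0% in STZ pools, against 59.2, 61.1 and 61.6% in control pools. Notch1 made up 30.1 ± 1.51% in STZ pools and 28.4 ± 1.06% in control pools (SD, n = 3 each). Notch3 made up 3.54, 2.26 and 4.73% in STZ pools, against 9.42, 9.41 and 7.83% in control pools, and every STZ pool was below every control pool. Of the ligand signal per kilobase, Jag1 made up 21.5, 18.6 and 22.4% in STZ pools against 24.5, 23.4 and 25.5% in control pools, and Dll4 made up 37.7 ± 1.48% in STZ pools and 31.2 ± 7.38% in control pools (SD, n = 3 each). The Dll4 share of control pool 3, 22.8%, was the lowest of the 6 libraries.

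The genes that were higher in STZ were also set against endothelial genes, as 6 of the 12 endothelial markers were higher in STZ; these ratios were chosen after their values were seen. Cdh5, the vascular cadherin gene, was itself higher in STZ, whereas Tie1, an endothelial receptor gene, had a log2 fold change of -0.01. Relative to Cdh5, Notch1 stood at 0.177, 0.209 and 0.196 in STZ pools against 0.204, 0.176 and 0.211 in control pools (ratio of CPM per kilobase). Notch4 relative to Cdh5 was 0.421 ± 0.070 in STZ pools and 0.421 ± 0.027 in control pools (SD, n = 3 each). Neither receptor gene therefore separated the groups once divided by Cdh5. Hey1 relative to Cdh5 was 0.0915, 0.0987 and 0.0901 in STZ pools against 0.0625, 0.0714 and 0.0898 in control pools, so that every STZ pool remained higher, the nearest by little. Hes1 relative to Cdh5 overlapped between the groups, with 0.303 to 0.394 in STZ pools against 0.268 to 0.315 in control pools. Relative to Tie1 all 4 genes separated the groups, for example Notch1 with 0.181 to 0.212 in STZ pools against 0.140 to 0.151 in control pools. Jag1 was lower in every STZ pool by either divisor, at 0.132 to 0.138 of Cdh5 in STZ pools against 0.218 to 0.280 in control pools.

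**Figure D4:**
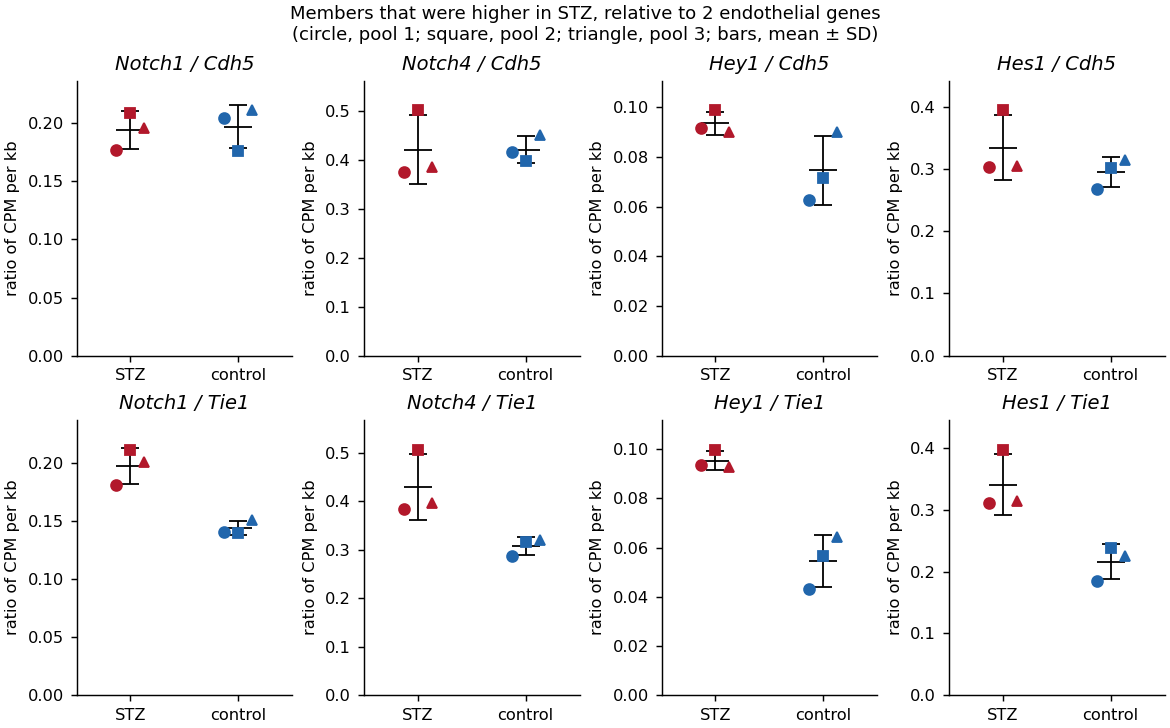
Ratio of CPM per kilobase of Notch1, Notch4, Hey1 and Hes1 to Cdh5 (upper row) and to Tie1 (lower row), STZ left of control; circles, squares and triangles are pools 1, 2 and 3 and bars give the mean ± SD. Notch1 and Notch4 overlap between the groups over Cdh5 (Notch4 at 0.421 in both) and separate over Tie1 (Notch4 at 0.385 to 0.507 in STZ against 0.287 to 0.321 in control).

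Notch3 and Heyl moved beside the mural genes. Pdgfrb, the pericyte and mesangial PDGF receptor gene, had 99.9, 53.4 and 117 CPM in STZ pools, against 243, 221 and 229 CPM in control pools, but did not pass in edgeR (adjusted p = 0.0538). Rgs5, a pericyte gene, was lower in STZ, with 30.0, 27.9 and 37.2 CPM in STZ pools against 69.7, 76.1 and 61.9 CPM in control pools (log2 fold change -1.13 ± 0.13, SE; adjusted p = 9.82e-05). Of the 14 mural markers, 11 had all STZ pools below all control pools, beside 13.7% of all tested genes, and none was at 0. Mcam, the most abundant of the list, is also made by endothelial cells and had a log2 fold change of 0.20. Notch3 relative to Rgs5 was 0.463, 0.417 and 0.517 in STZ pools against 0.428, 0.406 and 0.465 in control pools, so the ratio overlapped between the groups. Notch3 relative to Pdgfrb was 0.416, 0.652 and 0.494 in STZ pools against 0.367, 0.417 and 0.376 in control pools, so the groups overlapped only in that STZ pool 1 lay just below control pool 2. Heyl relative to Notch3 was 0.166 ± 0.012 in STZ pools and 0.174 ± 0.022 in control pools (SD, n = 3 each). The part of mural cells in the Notch3 and Heyl differences was not tested.

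**Figure D5:**
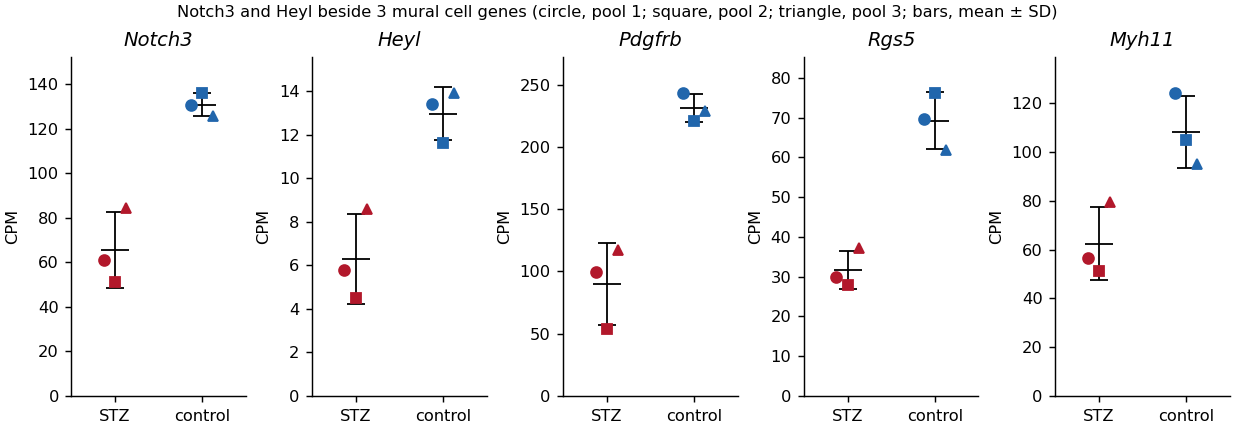
CPM of Notch3, Heyl and the mural cell genes Pdgfrb, Rgs5 and Myh11 in each library, STZ left of control; circles, squares and triangles are pools 1, 2 and 3 and bars give the mean ± SD (n = 3 each). In all 5 panels the 3 STZ pools lie below the 3 control pools, and STZ pool 2 is the lowest library.

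Within each group, 1 library held most of the highest levels of the 9 genes. STZ pool 2 had the highest level of its group for 7 genes and the lowest for Notch2 and Notch3. Control pool 3 had the highest level of its group for 6 genes and the lowest for Notch2, Notch3 and Dll4. These are the same libraries that stood apart on the second principal component. They also had the lowest summed podocyte markers of their groups, 5187 CPM in STZ pool 2 (6400 and 6422 CPM in the other STZ pools) and 4900 CPM in control pool 3 (7053 and 7801 CPM in the other control pools), and the lowest mural sums, 816 and 1536 CPM. Podxl alone gave 3323 CPM of the podocyte sum in STZ pool 2 and 2956 CPM in control pool 3. The mural sum of control pool 3 was close to the 1621 and 1566 CPM of control pools 1 and 2. Control pool 3 was also the shallowest library, with a total count of 4387339. The parts of depth and of other cell types in this spread were not tested. With both libraries left out, a setting chosen after seeing the data, the same number of genes, 6, was called, and Hey1 had a log2 fold change of 0.92 and Notch3 of -0.87.

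Of the wider Notch pathway, 66 genes in 9 lists, 56 were in the tables and all 56 were tested. Of these, 4 were higher, 3 were lower and 49 did not pass, a share called of 12.5% that is near the 9.78% of all tested genes. Their median log2 fold change was 0.04. Without control pool 1 the count called was 3, and without both STZ pool 2 and control pool 3 it was 11. In the receptor cleavage list 1 of 9 genes was called by edgeR, and 5 had an unadjusted p under 0.05, beside 3091 of all 12786 tested genes. In 6 of the 9 every STZ pool was above every control pool, beside 15.4% of all tested genes. Aph1b, a subunit of gamma-secretase, rose, with 27.7, 27.1 and 30.9 CPM in STZ pools against 15.9, 14.8 and 18.3 CPM in control pools (log2 fold change 0.81 ± 0.14, SE; adjusted p = 0.00188). The gamma-secretase subunit genes Psen2, Ncstn, Aph1a and Psenen had log2 fold changes of 0.10 to 0.25 and did not pass. All 9 cleavage genes had a positive log2 fold change, with a median of 0.21, against -0.01 over all tested genes. Adam10 and Adam17, the proteases that make the first activating cut, stood at 253 ± 7.13 and 106 ± 4.81 CPM in STZ pools, against 235 ± 5.66 and 91.7 ± 3.88 CPM in control pools (SD, n = 3 each; adjusted p = 0.506 and 0.151).

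Fringe enzymes add sugars to Notch and shift its preference between Delta and Jagged ligands. None of the 6 receptor glycosylation genes passed in edgeR, 3 had an unadjusted p under 0.05, and DESeq2 and limma-voom each called 1, Lfng. Lfng, the lunatic fringe gene, had 107, 163 and 98.8 CPM in STZ pools against 60.8, 78.5 and 82.2 CPM in control pools. The Lfng groups did not overlap, and its log2 fold change of 0.75 ± 0.22 (SE) had an adjusted p of 0.0958 in edgeR and of 0.000704 in DESeq2, 0.0314 in limma-voom and 0.0282 with a fit that was not robust. Without STZ pool 2 the Lfng log2 fold change was 0.49 (adjusted p = 0.0286), and Lfng also passed without STZ pool 3 (0.0372). Mfng, the manic fringe gene, had 128 ± 6.53 CPM in STZ pools and 105 ± 6.16 CPM in control pools (SD, n = 3 each; adjusted p = 0.0609). Neurl1b, a ubiquitin ligase of the Neuralized family that acts on Notch ligands, rose by 0.37 ± 0.09 on the log2 scale (adjusted p = 0.0150 by edgeR). It was the called gene among 3 ligand ubiquitin ligases (33.3%, beside 9.78% of all tested genes). The Neurl1b call was lost without STZ pool 2 (adjusted p = 0.0533) or control pool 1 (0.0734).

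In the nucleus, Rbpj itself had 59.2, 55.8 and 57.0 CPM in STZ pools against 57.1, 63.9 and 63.8 CPM in control pools and did not pass (log2 fold change -0.10 ± 0.09, SE; adjusted p = 0.563). Maml3, a Mastermind coactivator, was the called gene among 8 coactivators and fell by 0.61 ± 0.10 on the log2 scale (adjusted p = 0.00169), to 42.9, 39.6 and 43.6 CPM in STZ pools, against 62.7, 69.4 and 60.1 CPM in control pools. Maml1 and Maml2 had log2 fold changes of -0.02 and -0.13. Calls made up 12.5% of the 8 coactivators and 22.2% of 9 corepressor genes, beside 9.78% of all tested genes. Of the corepressor genes, Tle1 rose (0.45 ± 0.10, adjusted p = 0.0106 by edgeR) and Tle2 fell (-0.52 ± 0.12, adjusted p = 0.0151). Both encode Groucho family proteins, to which Hes repressors are known to bind. The Tle1 call was lost without STZ pool 3 (adjusted p = 0.0686) or control pool 1 (0.0516), and the Tle2 call without STZ pool 1 (0.0763), STZ pool 3 (0.0553) or control pool 1 (0.0701). None of the 9 genes of receptor endocytosis and turnover passed in edgeR, DESeq2 or limma-voom (1 had an unadjusted p under 0.05 in edgeR), the smallest p being those of Itch (log2 fold change 0.24, adjusted p = 0.178) and Numb (0.20, adjusted p = 0.241). The other ligand genes measured, Dll1 and Dlk2, had log2 fold changes of -0.04 and 0.31 and did not pass (adjusted p = 0.859 and 0.604).

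Of 6 arterial and venous genes that are tied to endothelial Notch, 1 was called (16.7%, beside 9.78% of all tested genes). Gja4, a connexin gene of arteries, was higher (1.06 ± 0.09) and the others did not pass. Efnb2, the arterial ephrin ligand gene, had 840 ± 73.4 CPM in STZ pools and 796 ± 32.1 CPM in control pools (SD, n = 3 each), with a log2 fold change of 0.08. Gja5, the other arterial connexin gene listed, had a log2 fold change of -0.29 ± 0.11 (adjusted p = 0.140), Unc5b of -0.07, Sox17 of -0.46 ± 0.29 and Nr2f2, the venous transcription factor gene, of -0.02. These genes, chosen as arterial and venous markers, thus did not move one way.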

How the data were processed

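RNA was sequenced from EYFP-sorted glomerular endothelial cells in 6 libraries, 3 STZ and 3 control, grouped by the treatment label. Per the labels' protocols, RNA of 4 mice was pooled per sample. The authors deposited 1 count value per gene and library, in steps of 0.5, treated as an expected count (2251 genes were not whole throughout); the 9 genes have 1 listed transcript each and whole values. Blank cells (34) were read as 0. The submitters' processing notes name the build mm10 and limma. Aligner, counting tool, strand setting and gene filter were not given in the sources used here. Without a known strand setting, reads of Notch1, Notch3 and Dll4 cannot be told from those of annotated genes on the opposite strand whose exons overlap theirs, and Notch2 overlaps an annotated gene on its own strand (GENCODE M21). Listed starts were raised by 1, since start plus 1 equalled a RefSeq start in 4024 of 5125 plus-strand genes and the listed start in 18.

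Values were rounded to whole counts and analysed in R 4.3.3 by the two-sided, robust quasi-likelihood F test of edgeR 4.0.16, after filterByExpr and TMM scaling, on all 12786 genes that passed the filter. Benjamini-Hochberg adjustment ran over all of them, and calls needed an adjusted p under 0.05. CPM use TMM library sizes, SE is the log2 fold change divided by the root of F, and 95% intervals use the t distribution with the degrees of freedom of the fit. Counts were also simulated at this depth, with 1 common spread for all genes (a biological coefficient of variation of 0.117). In them, with 12782 genes tested, the test found 56.7% of true 1.5-fold changes, 93.9% at 2-fold and 100% at 4-fold. Of its calls there, 6.21% were false. Differences in spread between genes and pools that stand apart were not simulated, so these shares may differ in the data. The 15 alternative settings were DESeq2 size factors, upper-quartile normalization, no filter, a minimum of 1 CPM in 3 libraries, limma-voom (limma 3.58.1), DESeq2 1.42.0, a fit that was not robust, a replicate block, thinning, and leaving out each library. The genes and lists were chosen with earlier results of these data known. Named genes were the 9 genes, every called gene of the wider lists or, in a list without calls, the 2 with the smallest p, and the genes most like a called one. Other genes were named after their values were seen. Some genes that the rule took are left out here.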

Additional observations from a re-analysis of the deposited data

How the results depend on the processing

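No label says that equal pool numbers share an animal, litter or day. Deviations of same-numbered STZ and control pools from their group means correlated at 0.119, -0.128 and -0.163, and no pool correlated best with its own number. With 3 pools a group, such correlations cannot decide whether the pools were paired. With a replicate block 1001 genes were called overall against 1251, 4 of the 9 Notch genes and 8 of the wider pathway genes; Notch4 (adjusted p = 0.0565) and Jag1 (0.0539) were then not called and Lfng (0.0143) was. Over the settings that leave out 1 library, 662 (without STZ pool 1) to 1291 genes were called, with 720 without control pool 1, and 2 to 5 of the 9 Notch genes and 3 to 8 wider pathway genes. Without both STZ pool 2 and control pool 3, 11 wider pathway genes were called against 7, and Lfng (0.57, adjusted p = 0.00152) and Itch (0.34, adjusted p = 0.0331) passed. Sign changes were seen in uncalled genes, in Dll4 (-0.08) and Dll1 (0.04) with both pools left out and in Dll1, which ran from -0.11 to 0.06 over single omissions and was above 0 without STZ pool 3 (0.01) or control pool 3 (0.06). The cause of these changes was not tested. Of 135 recomputed values of the 9 genes under the 15 settings, leaving out the added one, 118 kept direction and side of the threshold, 17 kept direction and lost the call, and none reversed. The median log2 fold change of all genes stayed between -0.028 and -0.004 over these settings. With 3 pools a group and 1 common spread for all genes, 56.7% of simulated 1.5-fold changes were found. A change of the size of Notch1, Notch4 or Jag1 can thus be missed.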

Other observations

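Over the 6 libraries, the genes whose log2 CPM followed each called Notch gene most closely, among 10579 others with a mean log2 CPM of at least 3, are given with Pearson's r as a description. The libraries form 2 separate groups and share one scaling. For Notch1 they were Parvb (0.996), which encodes a focal adhesion protein, Mapt (0.994), which encodes the microtubule protein tau, and Nat6 (0.993). For Notch4 they were Rfc5 (0.996), a subunit of a replication clamp loader, Cbfa2t3 (0.991), a transcriptional corepressor, and Nacc1 (0.988). For Notch3 they were Kctd15 (0.995), Dcun1d4 (0.993) and Kalrn (0.992). For Jag1 they included Fubp1 (0.996) and Gm14322 (0.994). For Hey1 they were 2900026A02Rik, Pacs1 and Nr4a1 (0.997 each), the last an immediate early nuclear receptor with a log2 fold change of 0.56 (adjusted p = 0.00447 by edgeR). For Hes1 they were Grasp (0.995), Mcl1 (0.994), a survival factor of the Bcl2 family, and Midn (0.993).

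Markers of erythroid cells were higher in STZ as well, with 3 of 5 called by edgeR and 5 each by DESeq2 and limma-voom. Of all tested genes, edgeR called 5.47% higher. The erythroid sums were 206, 191 and 125 CPM in STZ pools against 21.8, 59.1 and 33.1 CPM in control pools. Of 7 leukocyte markers, 2 were lower in STZ, beside 4.32% of all tested genes. The called genes included the B cell gene Cd79a (log2 fold change of -1.71), and the other 5 markers did not pass. Of 8 tubule and parietal markers Slc12a1 was lower, with a log2 fold change of -3.16 ± 0.64 (SE), and the others did not pass. Its adjusted p by edgeR, 0.0497, was just under the threshold. Mean Slc12a1 was 3.72 CPM in STZ pools and 33.2 CPM in control pools, where pools 1, 2 and 3 had 17.3, 61 and 21.2 CPM.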
